A study of Mus musculus with 9 samples.

Results

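The genes described here are 10 mouse CC chemokines, Ccl2, Ccl3, Ccl4, Ccl5, Ccl6, Ccl7, Ccl9, Ccl12, Ccl17 and Ccl22, in RAW 264.7 cells, a mouse macrophage line. All probe sets whose platform annotation gave 1 of these symbols and no other were taken, which found all 10 genes with 12 probe sets, among 12393 named genes and 22626 probe sets tested. Ccl6 and Ccl9 had 2 probe sets each and the other genes 1 each. Total RNA was measured on 9 arrays, 3 from untreated cells, 3 from cells kept for 18 h with LPS, the lipopolysaccharide of bacterial outer membranes, at 100 ng/ml, and 3 from cells labelled as constitutively over-expressing CstF-64. CstF-64 is the product of Cstf2, a subunit of the cleavage stimulation factor that acts when the 3' ends of mRNAs are made. The CstF-64 cells were not given LPS, as far as the labels say. The study has no array labelled as a vector or clone control for them, and the sources used here do not give the construct or say whether the cells are 1 clone. Nothing says that the 3 samples of a group were separate cultures, so the p-values speak of the spread among these 9 arrays alone, and part or all of it may be technical.

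CC chemokines are small secreted proteins with a pair of adjacent cysteines near their amino end. They bind G-protein coupled receptors on leukocytes and direct their movement towards the source. Macrophages that sense LPS through Toll-like receptor 4 activate NF-kappaB and interferon regulatory factors, and many chemokine genes are known targets of these factors. Many chemokine mRNAs also carry AU-rich elements, through which factors such as tristetraprolin shorten their lifetime. In these data more mRNA per cell and more cells with the mRNA cannot be told apart.

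The deposited intensities lay on a common scale, with a trimmed mean of 150.05 to 150.07 on every array. The highest value of 27 probe sets for Bacillus controls, 31.2, served as the background limit. Of the 12 chemokine probe sets, 10 lay above this limit on at least 3 arrays and 5 on all 9. No filter was applied before the test. Of 12 macrophage markers 11 were above the limit on every array, Aif1 being the exception. Of 9 lymphocyte markers 7 lay at or below it on every array. Of 7 granulocyte markers 3 lay at or below it on every array, and none was above it on all 9. Mpo and Ngp of these were below it only on the last LPS array (27.5 and 29.3). Of 8 fibroblast markers 2 were above it on all 9 arrays and 4 on none, and their summed intensity was 177.9 to 211.6 in untreated, 217.7 to 285.4 in LPS and 194.9 to 233.2 in CstF-64 arrays. Of these Dcn, which encodes decorin, rose after LPS together with the chemokines, with 3.5 to 13.4 before and 34.4 to 61.7 after it (limma adjusted p = 0.00108), and the part of such cells in the chemokine changes was not tested. The first LPS array and the first CstF-64 array had the lowest mean correlation across probe sets with the other arrays of the group, 0.966 and 0.975, against 0.977 to 0.985 for the remaining arrays. The brighter Cstf2 probe set read 317.9, 361.5 and 394.5 in the CstF-64 arrays and 397.8, 363.1 and 372.2 in the untreated arrays. The signal was thus no higher in cells labelled CstF-64 (log2 -0.08, SE 0.13, limma adjusted p = 1). The other Cstf2 probe set read 97.1, 85.4 and 80.4 in the CstF-64 arrays, all below the untreated values of 100.2 to 134.1 (log2 -0.36, limma adjusted p = 0.763). So the label is not borne out by either probe set, and whether the construct holds the probed sequences is not known.

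In the gene order of the mouse assembly GRCm38.p6, Ccl2 and Ccl7 are neighbours on chromosome 11, with Ccl11 between Ccl7 and Ccl12. Further along the same chromosome Ccl5, Ccl9, Ccl6, Ccl3 and Ccl4 stand next to each other. Ccl22 and Ccl17 lie on chromosome 8 with Cx3cl1 between them. RefSeq promoter windows were found for 6 of the 10 genes. The 250 bases before the annotated start are shown for Ccl3, Ccl9 and Ccl22, which rose after LPS, and for Ccl12, which was not above the background limit on any array. They are written 5' to 3' on the gene's strand, with the matches to the motifs searched in capitals.
Ccl3 chr11:83649379-83649628 minus strand: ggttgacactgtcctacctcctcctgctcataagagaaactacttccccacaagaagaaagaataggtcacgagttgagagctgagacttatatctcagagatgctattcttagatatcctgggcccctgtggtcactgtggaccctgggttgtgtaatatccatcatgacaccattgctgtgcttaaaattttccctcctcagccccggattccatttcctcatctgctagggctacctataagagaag
Ccl9 chr11:83578637-83578886 minus strand: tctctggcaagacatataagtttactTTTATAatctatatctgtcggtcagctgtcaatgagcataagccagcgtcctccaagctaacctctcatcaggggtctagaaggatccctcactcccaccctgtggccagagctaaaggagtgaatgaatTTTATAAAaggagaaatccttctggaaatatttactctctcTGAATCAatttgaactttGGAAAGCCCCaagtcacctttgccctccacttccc
Ccl22 chr8:94745434-94745683 plus strand: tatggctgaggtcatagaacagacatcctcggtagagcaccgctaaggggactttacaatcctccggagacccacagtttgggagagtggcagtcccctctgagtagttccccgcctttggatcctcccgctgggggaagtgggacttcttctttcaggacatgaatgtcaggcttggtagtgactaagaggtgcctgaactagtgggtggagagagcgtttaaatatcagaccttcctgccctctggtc
Ccl12 chr11:82101595-82101844 plus strand: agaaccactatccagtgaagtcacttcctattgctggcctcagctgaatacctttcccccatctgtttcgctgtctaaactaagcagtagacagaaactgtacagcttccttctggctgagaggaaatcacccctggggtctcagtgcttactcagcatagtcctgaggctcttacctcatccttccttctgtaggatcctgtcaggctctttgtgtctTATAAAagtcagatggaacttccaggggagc
The motifs searched on both strands were the NF-kappaB motif, the core of interferon response elements (a pair of GAAA blocks with 2 bases between them), TGANTCA (AP-1) and TATAAA. Of the 6 windows, 1, that of Ccl9, held the NF-kappaB motif, 35 to 26 bases before the start on the opposite strand, while 3.9% of 32851 such windows of all genes held it. Ccl9 also held TGAATCA at 53 to 47 bases before the start, a motif found in 6.75% of windows. It held TATAAA at 92 to 87 bases before the start, overlapped by a match on the opposite strand at 94 to 89. A further match on the opposite strand lay at 224 to 219. Ccl12 held TATAAA at 31 to 26 bases before the start, and 12.4% of all windows held this motif. None of the 6 windows held the interferon response element core, against 2.98% of all windows. A match is a match of letters only, and a window without one says nothing of sites elsewhere.

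LPS raised 8 of the 10 chemokine genes and lowered none. By probe set, 10 of 12 rose, while 5.93% of all probe sets rose, 10.7% fell and 16.6% were called in either direction (limma, adjusted p under 0.05). The median log2 change over the 12 chemokine probe sets was 2.56, with a range from 0.20 to 5.88, against a median of -0.04 over all probe sets. In 11 of the 12, all LPS arrays lay above all untreated arrays, which was so for 12.2% of all probe sets. The exceptions to the rise were Ccl12 and Ccl17. Log2 changes are of intensity + 13, so for dim probe sets they come out too small.

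**Figure D1:**
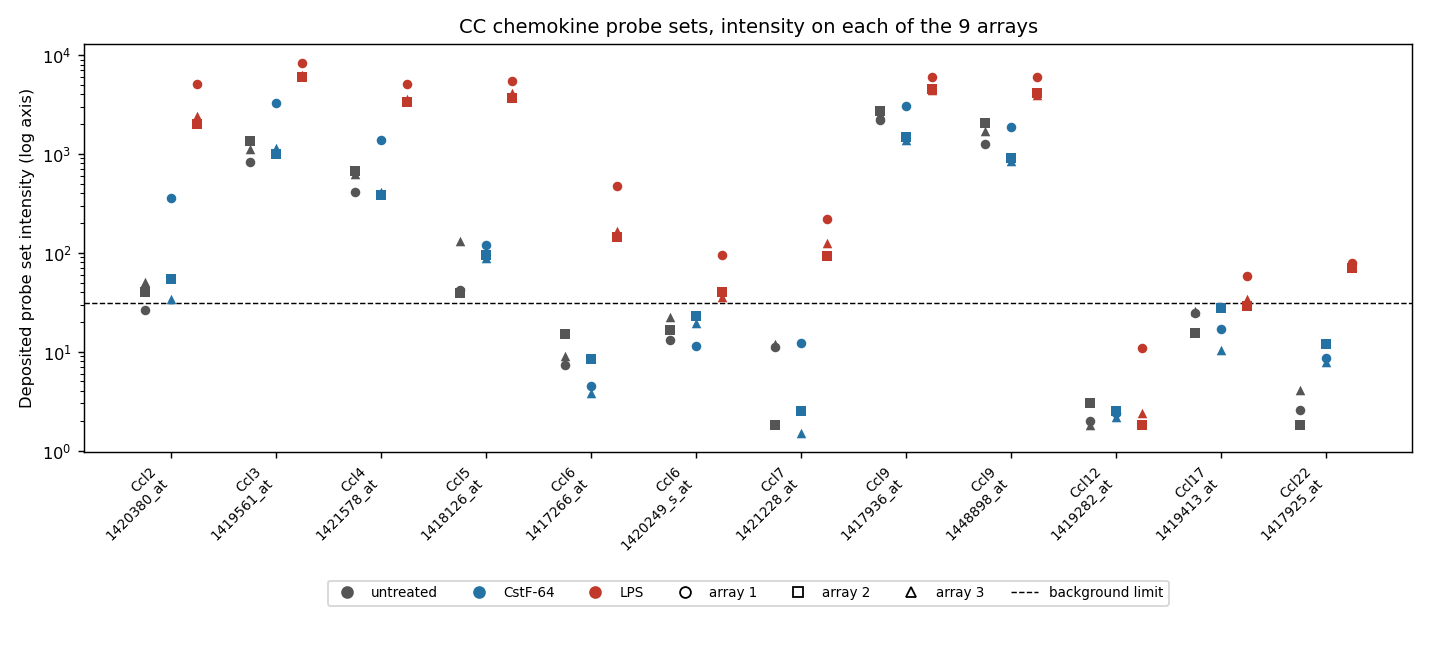
Deposited intensity (log axis) of each of the 12 chemokine probe sets on each of the 9 arrays; colour gives the group, marker shape the array number, and the dashed line the background limit of 31.2. LPS arrays lie above the untreated arrays in 11 of 12 probe sets, and the first CstF-64 array lies well above the other CstF-64 arrays for Ccl2, Ccl3, Ccl4 and Ccl9.

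Ccl2, Ccl7 and Ccl12 encode monocyte chemoattractants that act through the receptor Ccr2. Ccl2 read 26.5, 40.1 and 50.4 in the untreated arrays and 5118.2, 2002.0 and 2430.4 in the LPS arrays. The groups were far apart, and the first LPS array was 2.31 times the mean of the other LPS arrays. The log2 change was 5.85 (SE 0.66, limma adjusted p = 0.000315). Ccl7 read 11.2, 1.8 and 11.9 in the untreated arrays, all below the background limit, and 221.3, 92.7 and 125.0 after LPS. The rise was 4.39-fold or more (limma adjusted p = 0.000402), this bound being the geometric mean of the LPS arrays over the limit, and its first LPS array was again the highest. Ccl12 stayed below the limit on all 9 arrays, with 10.8 on the first LPS array and 1.8 to 3.0 on the other 8, so no fold is given for it (log2 0.20, limma adjusted p = 0.451). Of these genes of 1 chromosomal cluster, Ccl2 and Ccl7 thus rose and Ccl12 had no signal above the limit.

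Ccl3, Ccl4 and Ccl5 encode the inflammatory chemokines MIP-1 alpha, MIP-1 beta and RANTES, which attract T cells, monocytes and other leukocytes. Ccl3 read 821.1, 1353.4 and 1122.7 without treatment and 8398.1, 6009.8 and 6299.8 after LPS, a log2 change of 2.65 (SE 0.39, limma adjusted p = 0.00158). The value of 8398.1 was the highest of all probe sets on the first LPS array, and whether it was limited by the scanner is not known. Ccl4 read 411.6, 676.2 and 626.2 without treatment and 5142.0, 3357.1 and 3618.4 after LPS (log2 2.80, SE 0.43, limma adjusted p = 0.00199). These neighbouring genes were thus already well above the background limit in untreated cells and rose 6.34-fold and 7.10-fold between geometric means. Ccl5 read 42.3, 38.9 and 130.7 without treatment, the last being the highest, and 5456.7, 3681.6 and 4174.8 after LPS. Its log2 change of 5.88 (SE 0.34, 95% interval 5.12 to 6.65, limma adjusted p = 6.22e-06) was close to that of Ccl2. The folds of geometric means were 73.1 for Ccl5 and 77.5 for Ccl2. The lowest untreated values of both genes lay near the background limit, and that of Ccl2, 26.5, below it, so these folds are imprecise. The LPS arrays of Ccl5 differed from each other by no more than 1.48-fold.

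Ccl6 and Ccl9 encode chemokines that bind Ccr1 and are known from rodents. The brighter probe set of Ccl6, 1417266_at, read 7.3, 15.1 and 9.0 without treatment and 472.5, 144.2 and 164.3 after LPS, a rise of at least 7.17-fold (limma adjusted p = 0.000291). The first LPS array was 3.06 times the mean of the other LPS arrays. Its other probe set, 1420249_s_at, read 13.2, 16.5 and 22.2 without treatment and 95.7, 40.4 and 36.1 after LPS, at least 1.66-fold (limma adjusted p = 0.0292). That call was lost without the first or the second untreated array (adjusted p = 0.0975 and 0.0880), with the replicate number as a block (adjusted p = 0.0551) and with the 6 arrays of these groups alone (adjusted p = 0.0525). The probe sets of Ccl6 thus pointed the same way, with log2 changes of 3.36 and 1.13.

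Ccl9 was far above the background limit on all 9 arrays. Its probe set 1417936_at read 2191.4, 2730.3 and 2523.4 without treatment and 6054.9, 4561.0 and 4402.5 after LPS (log2 1.00, SE 0.28, limma adjusted p = 0.0358). Probe set 1448898_at read 1259.7, 2049.6 and 1706.0 without treatment and 5959.6, 4141.3 and 3930.5 after LPS (log2 1.48, SE 0.31, limma adjusted p = 0.00899). In neither probe set did the groups overlap, and the change of 1417936_at was the smallest of those called. The call of 1417936_at was lost under quantile normalization (log2 0.68, adjusted p = 0.130) and without any 1 of the untreated or LPS arrays (adjusted p = 0.0628 to 0.109). The call of 1448898_at held in each of these fits.

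Ccl17 and Ccl22 encode ligands of Ccr4, a receptor of T helper and regulatory T cells, and are known as products of dendritic cells and of alternatively activated macrophages. Ccl22 read 2.6, 1.8 and 4.1 without treatment and 79.1, 71.0 and 74.2 after LPS. The LPS arrays differed by at most 1.11-fold, and the rise was at least 2.39-fold (log2 2.47, SE 0.14, limma adjusted p = 5.35e-06). Ccl17 read 24.8, 15.4 and 25.9 without treatment, all below the limit, and 58.0, 28.9 and 33.8 after LPS. All its LPS arrays lay above all untreated arrays, yet the change did not pass the test (log2 0.58, 95% interval -0.01 to 1.17, limma adjusted p = 0.181). Of 7 measured dendritic cell markers none was called after LPS, where 17% of all genes were (limma), and none had an unadjusted p under 0.05. Their summed intensity was 377.1 to 504.4 in untreated and 417.9 to 472.1 in LPS arrays. Of these 7 markers 2 lay at or below the limit on every array, Xcr1 among them. Itgax and Fscn1 lay above the limit on every array. Whether cells of this kind have a part in the Ccl22 change was not tested.

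**Figure D2:**
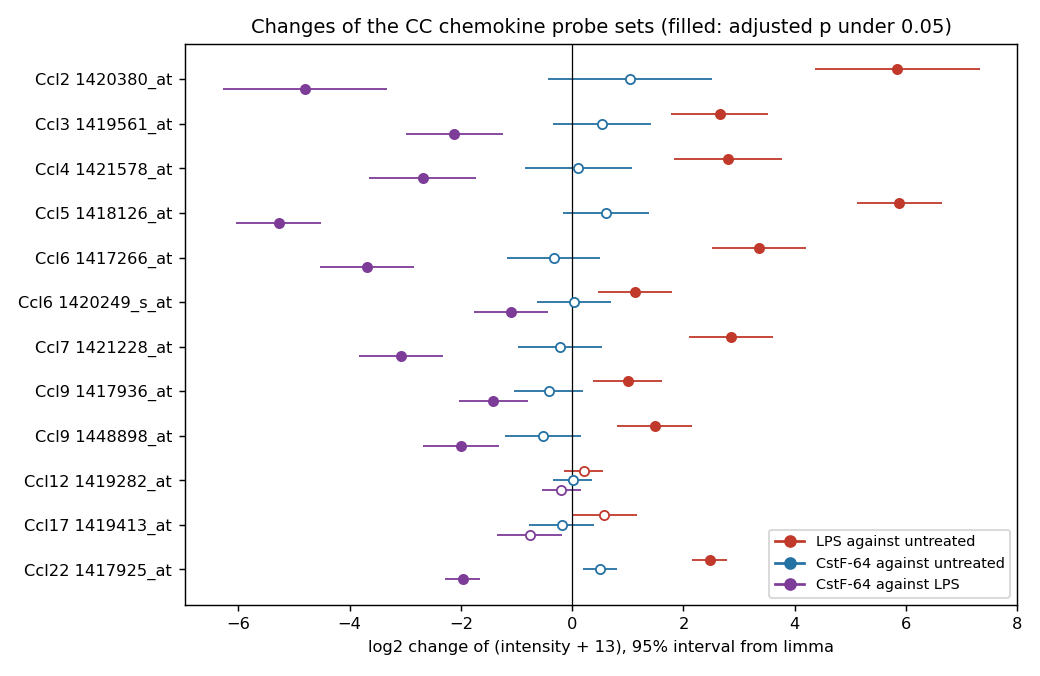
Log2 change of intensity + 13 for each chemokine probe set in the 3 comparisons, with 95% intervals from limma; filled points passed an adjusted p of 0.05. The LPS changes reach 5.88, all changes of CstF-64 against untreated cells are open points between -0.52 and 1.04, and 10 of 12 probe sets are lower in CstF-64 than in LPS arrays.

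In the CstF-64 arrays no chemokine probe set of 12 was called against untreated cells, where 0.248% of all probe sets were called, 0.102% higher and 0.146% lower (limma). At an unadjusted p under 0.05 there was 1, Ccl22. Ccl22 read 8.6, 12.0 and 7.8 against 2.6, 1.8 and 4.1, above untreated on every array, which was so for 6.67% of all probe sets, but all 6 values were below the background limit. Its log2 change was 0.50 (95% interval 0.19 to 0.81, limma adjusted p = 0.383). The median over the 12 probe sets was 0.02, against 0.00 over all probe sets. The intervals were wide: for Ccl2 from -0.44 to 2.52, for Ccl3 from -0.34 to 1.41 and for Ccl4 from -0.85 to 1.08. The missed calls therefore do not show that the levels were equal.

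The CstF-64 arrays differed widely from each other for several of these genes. Ccl2 read 354.4 on the first CstF-64 array and 53.9 and 34.0 on the others. Ccl3 read 3289.2, 1006.8 and 1149.5, and Ccl4 1396.0, 383.0 and 411.1. On the first array these 3 genes lay above every untreated array, and below every LPS array.

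For Ccl9 too the first CstF-64 array was the highest of its group. It read 3083.5, 1482.9 and 1371.3 with probe set 1417936_at and 1886.9, 919.7 and 855.2 with 1448898_at. The other CstF-64 arrays were below all untreated arrays on both probe sets. Without the first CstF-64 array the log2 changes were -0.79 and -0.88, which still missed the threshold (limma adjusted p = 0.126 and 0.228), and that of Ccl4 turned from 0.11 to -0.48 (limma adjusted p = 0.597). The change of Ccl2 went from 1.04 to 0.14 and that of Ccl3 from 0.53 to -0.001 in the same fit. No chemokine probe set was called without this array, while 0.234% of all probe sets were called higher and 0.252% lower (limma).

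Ccl5, Ccl6, Ccl7, Ccl12 and Ccl17 did not show this split above the background limit. Ccl5 read 119.5, 95.1 and 88.8 in the CstF-64 arrays, inside the range of the untreated arrays. The top of that range was the last untreated array (130.7), and the others read 42.3 and 38.9. Without the last untreated array the log2 change of Ccl5 was 1.08 (SE 0.19, limma adjusted p = 0.13), against 0.61 with it. Ccl6, Ccl7, Ccl12 and Ccl17 were at or below the limit on all CstF-64 arrays, with values up to 27.5.

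The difference between the first array and the mean of the other arrays of a group was set beside the same difference over 8374 genes, each gene being read at its brightest probe set and kept if above the limit on at least 3 arrays. In the CstF-64 group it was 2.71 for Ccl2, 1.78 for Ccl4, 1.60 for Ccl3 and 1.11 for Ccl9 on the log2 scale, and 0.34 for Ccl5. Over all genes its median was 0.01 and its 5th to 95th percentile -0.66 to 0.64, so that Ccl2, Ccl3, Ccl4 and Ccl9 lay above this range and Ccl5 inside it. Ccl6, Ccl7 and Ccl22 had no CstF-64 value above the background limit, so their differences in this group are not read. In the LPS group, where the median over all genes was 0.04, Ccl6, Ccl2 and Ccl7 (1.54, 1.21 and 0.96) lay above the 95th percentile of 0.82. The first LPS array was the highest of all 9 arrays for every one of the 12 probe sets, though for Ccl12 at 10.8, below the limit. How often this was so over all probe sets was not counted, so it is not read as a trait of the chemokines. The ratio of 3' to 5' signal for actin was highest on the first array of each group, at 1.22 against 1.06 and 1.09 in CstF-64, 1.18 against 1.11 and 1.14 in LPS, and 1.20 against 1.11 and 1.03 in untreated cells. On the first untreated array Ccl2, Ccl3, Ccl4 and Ccl9 were the lowest of the group. The Gapdh ratio was highest on the first array in CstF-64 (0.88 against 0.85 and 0.82) and in untreated cells (0.87 against 0.81 and 0.79). In the LPS group the first array had the lowest Gapdh ratio (0.81 against 0.83 and 0.84). The part of RNA quality in these differences was not tested.

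**Figure D3:**
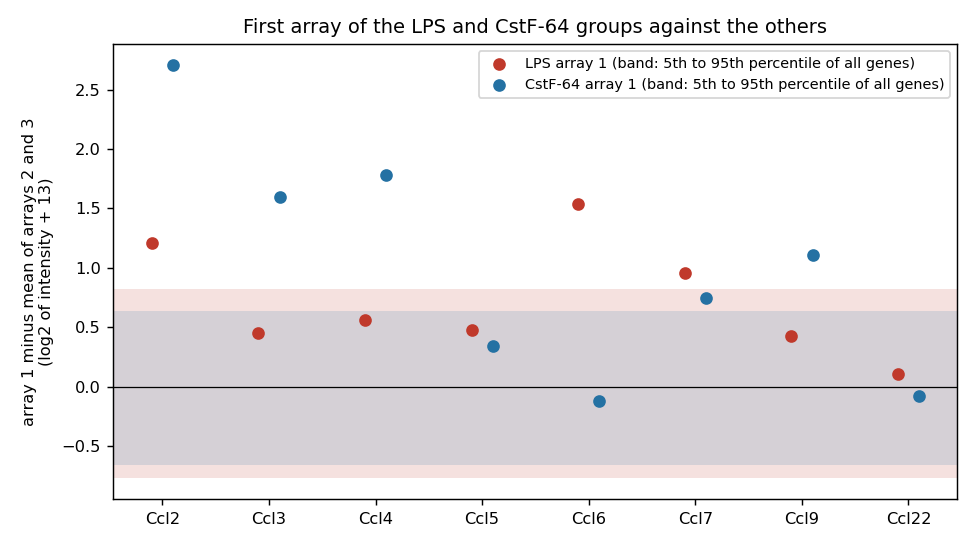
Log2 intensity (+ 13) of the first array minus the mean of the other arrays, for 8 chemokine genes in the LPS (red) and CstF-64 (blue) groups; the bands span the 5th to 95th percentile of the same difference over 8374 genes, -0.77 to 0.82 for LPS and -0.66 to 0.64 for CstF-64. Ccl2, Ccl3, Ccl4 and Ccl9 lie furthest above the CstF-64 band and Ccl6 and Ccl2 furthest above the LPS band, while the CstF-64 points of Ccl6, Ccl7 and Ccl22 rest on values below the background limit.

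The arrays of CstF-64 cells differed clearly from those of LPS-treated cells. Against LPS, 10 of 12 chemokine probe sets were lower and none higher, while 5.79% of all probe sets were called lower, 9.43% higher and 15.2% in either direction (limma). The median log2 difference over the 12 probe sets was -2.06, against 0.05 over all probe sets. Ccl5 (log2 -5.27, SE 0.34, limma adjusted p = 1.25e-05) and Ccl2 (log2 -4.81, SE 0.66, limma adjusted p = 0.00109) differed most, and their order was not settled. Without the first CstF-64 array the difference was -5.71 for Ccl2, -5.39 for Ccl5 and -3.28 for Ccl4. Even with the high first CstF-64 array, Ccl3 (log2 -2.12, limma adjusted p = 0.00565) and Ccl4 (log2 -2.69, limma adjusted p = 0.00265) were lower than after LPS. All CstF-64 arrays lay below all LPS arrays in 11 of 12 probe sets, which was so for 11.4% of all probe sets. Ccl17 missed the threshold (log2 -0.77, limma adjusted p = 0.0837), but was called after quantile normalization and after median centring (limma adjusted p = 0.0369 and 0.0299). The call of the dimmer Ccl6 probe set, 1420249_s_at (log2 -1.10, limma adjusted p = 0.0349), was lost without any 1 CstF-64 array or without the second untreated array, with a replicate block and with the 6 arrays alone, the adjusted p lying between 0.0556 and 0.101. For the 8 genes that rose after LPS, a mean above untreated follows from how they were picked. All 8 were called lower in CstF-64 than in LPS arrays. That comparison uses the same LPS arrays on which the 8 were picked, so it is not separate support. The order of untreated and CstF-64 was not settled for any of the 8 genes.

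The 9-array profiles were compared among Ccl2, Ccl3, Ccl4, Ccl5 and Ccl9, since those of Ccl6, Ccl7 and Ccl22 rest on values below the background limit on 6 of the 9 arrays. Each profile of log2 values was centred on its own mean, and the root mean square difference between profiles over the 9 arrays was used as a description. Of these 5 genes Ccl3 and Ccl4 were closest, at 0.25 log2 units, followed by Ccl3 and Ccl9 at 0.70. Ccl2 was nearest to Ccl5, at 0.77, and Ccl5 and Ccl9 were the furthest apart, at 2.15. These distances follow the size of the LPS change as well as its shape, since all points share the same 3 groups and arrays.

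Among 8366 other genes, the nearest to Ccl4 were Plaur, the urokinase receptor (0.25), and Msr1, a scavenger receptor (0.30). Nearest to Ccl5 were Ptgs2, the inducible cyclooxygenase (0.25), and Il1b, the cytokine interleukin-1 beta (0.41). The nearest to Ccl2 were Tnf, the cytokine tumour necrosis factor, Rsad2 and Cxcl2, at 0.796, 0.798 and 0.805, and their order was not settled. The nearest to Ccl9 was Ctsl, a lysosomal protease, at 0.12. The nearest to Ccl3 were Il13ra2, a receptor for interleukin-13, and Src, both at 0.34, and their order was not settled. Il13ra2 was below the background limit on all untreated arrays (21.8 to 29.3) and on the second and last CstF-64 arrays (15.5 and 22.8). Src was below it on the first untreated array (28.3).

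Related genes were read from 4 lists. Of 8 other CC chemokines measured from a list of 11, none was called after LPS (limma, 2 at an unadjusted p under 0.05). Over all genes 17% were called, 6.63% higher and 10.4% lower. Of the 8, 7 were not above the background limit on 3 arrays. The median log2 change of the 8 was 0.17, against -0.03 over all genes. Ccl8 (chosen after its values were seen) was above the limit on every array. It read 72.9, 63.1 and 60.0 without treatment and 101.5, 43.8 and 50.4 after LPS (log2 -0.07, limma adjusted p = 0.905). Ccl28, a mucosal chemokine, read 6.3 to 11.5 without treatment and 18.8 to 27.3 after LPS, all below the limit (log2 0.71, limma adjusted p = 0.0571). Its change passed the threshold in 5 of 16 alternatives, with an adjusted p of 0.0117 without the first CstF-64 array. Ccl24, or eotaxin-2, read 12.2, 7.5 and 19.5 and then 21.0, 27.8 and 43.1 (limma adjusted p = 0.141). In the CstF-64 arrays none of the 8 was called, where 0.274% of all genes were (limma), and none had an unadjusted p under 0.05.

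Of 14 CC chemokine receptors and atypical receptors measured, 1 rose after LPS and none fell, beside 17% of all genes that were called, 6.63% that rose and 10.4% that fell. It was Ccrl2, an atypical receptor that binds chemerin, which read 33.7, 48.9 and 36.6 without treatment and 570.5, 248.3 and 293.1 after LPS (log2 2.78, SE 0.27, limma adjusted p = 0.000114). Ccr1, a receptor for Ccl3, Ccl5, Ccl6 and Ccl9, read 37.1, 27.3 and 40.5 without treatment, 492.7, 81.4 and 98.1 after LPS and 129.6, 47.8 and 34.5 in the CstF-64 arrays. Its first LPS and first CstF-64 arrays were thus the highest of their groups, as for Ccl2. The change of this Ccr1 probe set after LPS missed the threshold (log2 1.87, SE 0.60, limma adjusted p = 0.0614). It passed under 6 of 17 alternatives, with an adjusted p of 0.0190 to 0.0449, for example without the first CstF-64 or the second LPS array. The other Ccr1 probe set was below the background limit on every array, with 31.1, 9.3 and 5.2 after LPS (log2 0.56, limma adjusted p = 0.294). The receptors of the monocyte chemoattractants and of Ccl17 and Ccl22, Ccr2 and Ccr4, were below the background limit on every array (chosen after their values were seen). In the CstF-64 arrays no receptor was called (limma, none at an unadjusted p under 0.05), while 0.274% of all genes were, 0.105% higher and 0.169% lower. Against LPS, Ccrl2 was lower and no receptor higher, where 15.8% of all genes were called, 6.36% lower and 9.47% higher (limma).

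Of 20 transcription factors and regulators of chemokine genes measured, 8 rose after LPS and none fell, beside 6.63% of all genes that rose and 10.4% that fell. Irf7, an interferon regulatory factor, read 123.2, 77.7 and 90.0 without treatment and 2459.2, 2385.3 and 2592.5 after LPS (log2 4.52, limma adjusted p = 5.55e-07). Nfkbiz, a nuclear IkappaB protein, read 41.8, 46.7 and 55.1 and then 1299.9, 728.7 and 729.8 (log2 3.89, limma adjusted p = 2.75e-05). Cebpb and Bcl3 also rose (log2 2.12 and 1.81). In the CstF-64 arrays none of the 20 was called (limma, 2 at an unadjusted p under 0.05), where 0.274% of all genes were. Nfkbiz read 57.4, 124.0 and 130.7 there, the first array being the lowest, unlike Ccl2, Ccl3 and Ccl4 (log2 0.88, limma adjusted p = 0.572).

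Of 9 mRNA stability factors measured, 3 rose after LPS and none fell, beside 6.63% of all genes that rose and 10.4% that fell, and the median log2 change was -0.02. Zfp36, which encodes tristetraprolin, a protein that speeds the decay of AU-rich mRNAs, read 139.5, 173.7 and 182.8 without treatment and 2614.2, 1098.7 and 1326.2 after LPS (log2 3.15, limma adjusted p = 6.99e-05). Zc3h12a, which encodes the ribonuclease regnase-1, rose at least 6.07-fold (limma adjusted p = 1.04e-05). Mapkapk2, a kinase that acts on tristetraprolin, rose by a log2 change of 0.45 (limma adjusted p = 0.0214), a call lost without the second untreated array, without the second or the last LPS array (limma adjusted p = 0.0707 to 0.0860) and with the 6 arrays of these groups alone (0.0521). Without the first CstF-64 array 3 of the 9 were called higher and 2 lower after LPS, Elavl1, which encodes the stabilizing factor HuR, among the lower (log2 -0.40, limma adjusted p = 0.0391). With the 6 arrays of these groups alone 2 were called higher and 1 lower. In the CstF-64 arrays none of the 9 was called (limma, 3 at an unadjusted p under 0.05), where 0.274% of all genes were. Zfp36l1, a relative of Zfp36 with the same kind of target, read 107.5, 288.7 and 327.5 there against 137.1, 100.5 and 96.0 in untreated arrays (log2 0.91, limma adjusted p = 0.696). Its first CstF-64 array lay inside the untreated range and the others above it, and without the first array the change passed the threshold (log2 1.38, limma adjusted p = 0.0440). The first CstF-64 array was the lowest of its group for Zfp36l1 and the highest for Ccl2, Ccl3, Ccl4 and Ccl9. A link between these genes was not tested.

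**Figure D4:**
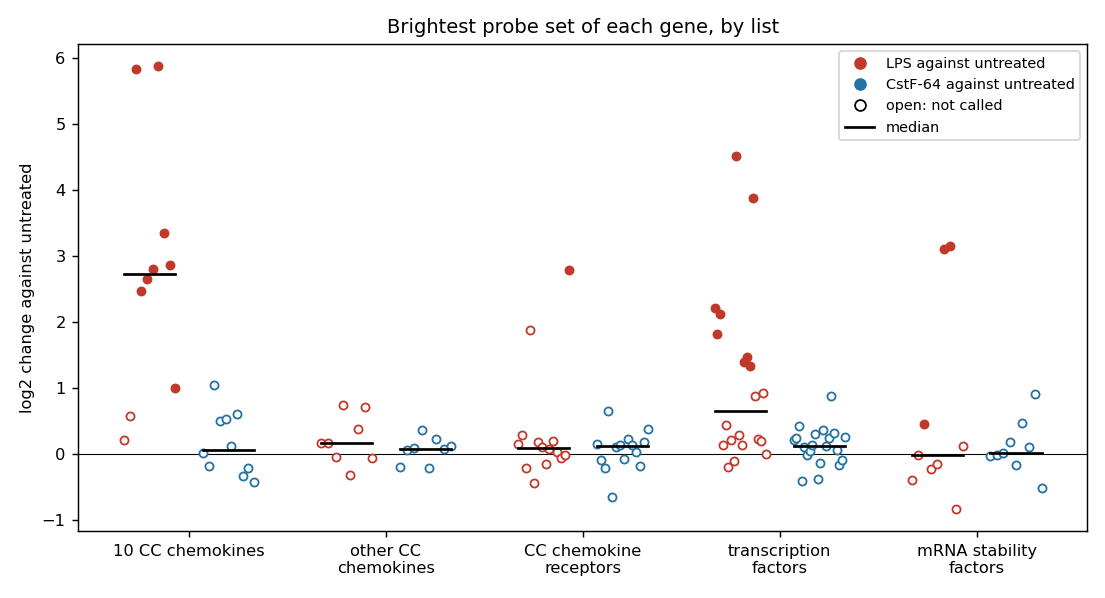
Log2 change against untreated cells of the brightest probe set of each gene, for the 10 CC chemokines and 4 lists of related genes, after LPS (red) and in CstF-64 cells (blue); filled points were called, open points were not, and black lines are medians. The chemokine median after LPS is 2.72 and every CstF-64 point is open.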

How the data were processed

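Probe set intensities of 9 arrays were used as deposited by the authors, on a linear scale. The sources used here do not name their software, background correction or scaling; the labels give the RNA reagent and a core facility. Probe sets were named from the platform annotation, with symbols updated by gene identifier to GRCm38.p6: of 22626 non-control probe sets, 20380 carried 1 gene. Groups came from the sample titles. Values were transformed to log2(intensity + 13), 13 being 0.25 of the median of all values, rounded. One limma model (version 3.58.1, R 4.3.3; lmFit, eBayes with an intensity trend) with a mean per group was fitted to all 9 arrays and all 22626 probe sets, two-sided, with Benjamini-Hochberg adjustment over all of them and a threshold of 0.05. The script was tested on simulated data. The brightest probe set stood for a gene in counts over lists. "At least N-fold" is the geometric mean of the brighter group over the background limit of 31.2. Log2 changes from limma have their standard error (SE). Precision is limited by having 3 arrays in a group.

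The chemokines and the gene lists were chosen with earlier results of these data known, so that no result here is independent support for a pattern already seen in them. Named genes were all 10 chemokines, up to 4 genes per related list and comparison by adjusted p, and up to 3 nearest profiles per chemokine, not printed for Ccl6, Ccl7 and Ccl22, whose profiles rest largely on values below background. Alternatives tried were quantile normalization, median centring, other pseudocounts (1 and 50), a filter on dim probe sets, no intensity trend, a replicate block, only the groups compared, and leaving out each array.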

Additional observations from a re-analysis of the deposited data

How the results depend on the processing

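The 10 chemokine probe sets called after LPS numbered 8 to 10 when each array was left out, and 9 under quantile normalization, with the replicate block or with the 6 arrays of the groups compared alone. In CstF-64 against untreated cells, 0 were called under every setting run. Against LPS, 9 to 10 were called when each array was left out and 9 to 11 under the other settings. Of the 10 called after LPS, 8 were called under all 17 alternatives, the exceptions being Ccl6 1420249_s_at and Ccl9 1417936_at, and of the 10 called against LPS, 9 were.

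Same-numbered arrays of different groups did not deviate together throughout (r from -0.063 to 0.158), so the numbers were not taken as pairs. The replicate block gave 9, 0 and 9 called probe sets in the 3 comparisons. Median centring moved the median change of all probe sets after LPS from -0.04 to 0.12, and quantile normalization to 0.01.

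Directions turned only in changes that were not called, each when 1 array was left out. After LPS Ccl12 ranged from -0.015 (without the first LPS array) to 0.327, and against LPS from -0.317 to 0.026 (also without that array). In CstF-64 against untreated cells, changes turned without the first CstF-64 array for Ccl3 (-0.001 to 0.846), Ccl4 (-0.481 to 0.435; also -0.102 without the first untreated array), Ccl20 (-0.023 to 0.157) and Cstf2 (-0.149 to 0.001). Ccl6 1420249_s_at ranged from -0.088 to 0.194 and turned without the first untreated array (-0.069) or without either of the last 2 CstF-64 arrays (-0.088 and -0.014). Ccl12 ranged from -0.012 to 0.044 and turned without the first or the last untreated array (-0.002 and -0.012), Ccl27a ranged from -0.017 (without the second CstF-64 array) to 0.421, and Ccl17 from -0.394 to 0.002 (without the last CstF-64 array). The causes were not tested. Signal near background limits Ccl12, Ccl17 and the untreated levels of Ccl2, Ccl5, Ccl6, Ccl7 and Ccl22.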
